A study of Mus musculus with 72 samples.

Results

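Hippocampal gene expression was compared between mice that had just been tested for retrieval of a contextual fear memory (RT30) and mice that had been trained a day earlier and were not tested (FC24). The comparison holds 18 of the 72 arrays of the series, chosen by their labelled group, with 9 RT30 mice and 9 FC24 mice and 1 array for each mouse. RT30 mice were trained, put back into the training chamber for 5 min at 24 h and dissected 30 min after that test. FC24 mice were trained in the same way and dissected at 24 h without going back into the chamber. All were male C57BL/6J mice aged 2 months, handled on 3 days beforehand, and training was a single foot shock of 2 s and 1.5 mA that ended 2.5 min after the mouse entered the chamber. The tissue was both whole hippocampi of a mouse, so every level is an average over all of its cell types. Since no mice were moved or handled at that hour without the test, retrieval itself, the chamber, the handling and the extra time after training cannot be told apart here. The other 2 groups used below were never tested for retrieval. FC30 mice were dissected 30 min after training, and CC30 mice were handled, untrained and dissected at the matching time of day.

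When neurons fire strongly, calcium entry activates kinases that phosphorylate transcription factors already bound to DNA, such as CREB at cyclic AMP response elements and SRF at serum response elements. These switch on immediate early genes within minutes, with no need for new protein. Some encode further transcription factors, such as Fos and the Egr proteins, some act at synapses, such as Arc, and some damp the kinase signal, such as the phosphatase Dusp1.

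The arrays measured 35556 probe sets, of which 21218 carried 1 gene symbol, together 18820 genes. Levels are on the log2 scale, so a difference of 1 is a doubling, after removal of the first principal component of all 72 arrays. Array medians lay between 5.82 and 5.87, and arrays of these 2 groups correlated at 0.992 to 0.996. Levels of hippocampal marker genes are given as a description. No other tissue was measured, so they do not test the identity of the tissue. The mean level of 9 dentate granule cell markers was 8.34 to 8.47 in RT30 mice and 8.31 to 8.50 in FC24 mice, and that of 9 CA pyramidal cell markers 8.85 to 8.97 in RT30 mice and 8.82 to 8.92 in FC24 mice. No marker of astrocytes, oligodendrocytes, microglia, interneurons, dentate granule cells or CA pyramidal cells passed the limma test described below, and 2 of these 59 markers had an unadjusted p under 0.05. Differences were positive for 3 of 11 astrocyte, 1 of 11 oligodendrocyte and 5 of 9 microglial markers. They were positive for 3 of 10 interneuron, 4 of 9 dentate and 5 of 9 CA markers. In whole tissue, fewer cells of a type and less RNA per cell cannot be told apart.

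At a Benjamini-Hochberg adjusted p under 0.1 in limma, 54 probe sets differed between RT30 and FC24 mice, or 0.152% of those tested. Of these, 43 were higher in RT30 mice (0.121%) and 11 lower (0.0309%). They held 40 genes with a symbol of their own, 34 higher and 6 lower, with 4 further probe sets that carry several symbols and 10 that carry none. Among the unnamed ones, 2 had identical values, which leaves 53 distinct probe sets. At the stricter adjusted p of 0.01, 24 probe sets passed (0.0675%), 21 higher and 3 lower. In each of the 34 genes that rose, 9 of 9 RT30 mice were above the FC24 mean, and in each of the 6 that fell, 9 of 9 were below it. The genes were chosen on the group difference in these same mice, so such counts follow largely from that choice. The share of all probe sets with 9 of 9 on the same side was not computed. The groups did not overlap at all in 20 of the 34 genes, against 0.0619% of all probe sets that lay wholly above, and in 1 of the 6 that fell, against 0.0141% wholly below. Changes were small: 7 genes rose at least 1.5-fold and 19 of the 40 changed by less than 1.2-fold either way. For the gene lists below, the background over all probe sets was 2204 of 35556 at an unadjusted p under 0.05 (6.2%) and 51.5% with a positive difference. The median standard error of a log2 difference was 0.0505, and it depends on both the number of arrays and the spread between mice.

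**Figure D1:**
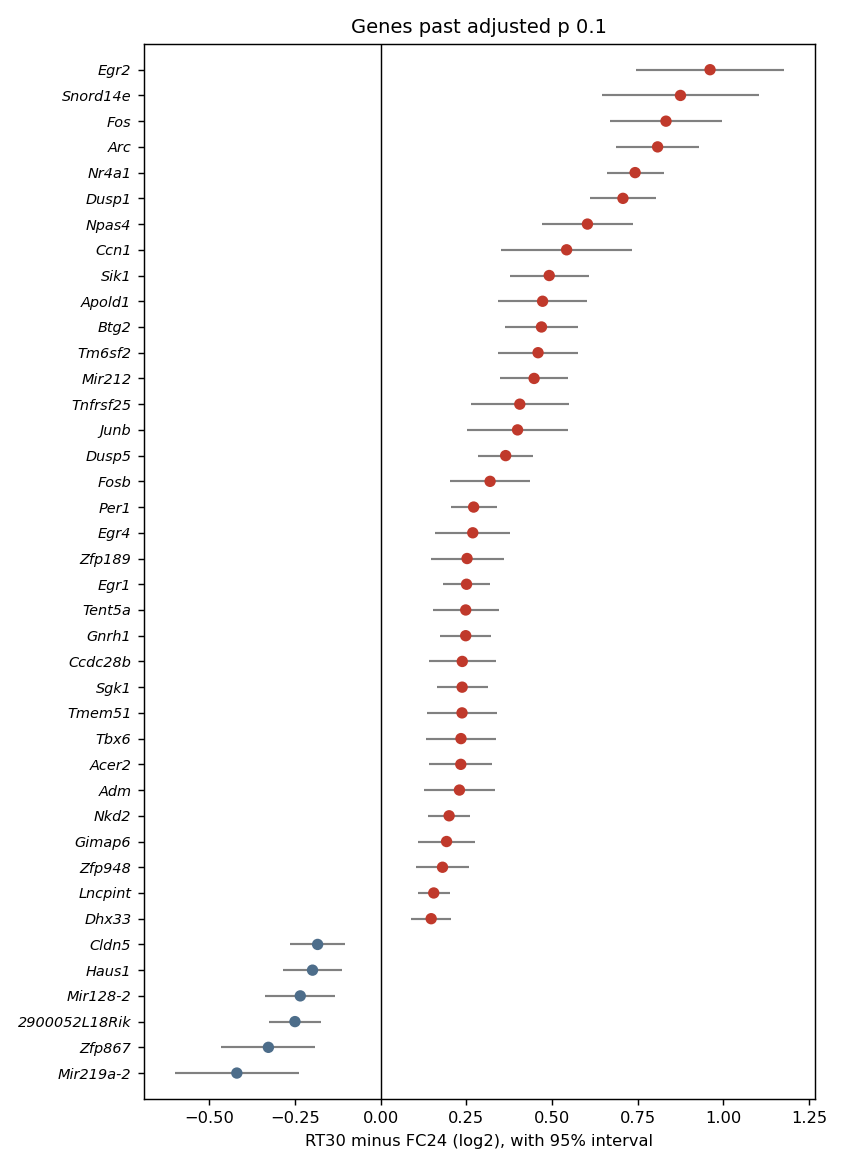
Difference between RT30 and FC24 mice (RT30 minus FC24, log2, horizontal axis) for the 40 genes past adjusted p 0.1, with points for the estimate and bars for its 95% interval, red for higher in RT30 mice and blue for lower. The intervals of the 34 genes that rose lie to the right of 0, with Egr2 at 0.96, and those of the 6 that fell to the left, with Mir219a-2 at -0.42.

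Promoter sequence is shown for early genes that rose, because the elements bound by CREB and SRF are short enough to be read directly. Windows were the 250 bases upstream of each RefSeq start site on GRCm38.p6. The full cyclic AMP response element TGACGTCA was capitalised in Btg2 and Dusp1, its 5-base core CGTCA (or TGACG, the other strand) in Fos, Fosb and Nr4a1, and the CArG box of SRF in Egr2 and Dusp5. The Egr2 and Dusp5 stretches also hold the core CGTCA, left in lower case. The Btg2 window is chr1:134079299-134079336 on the minus strand, Dusp1 chr17:26508593-26508630 on the minus strand, Fos chr12:85473812-85473840 on the plus strand, Fosb chr7:19310089-19310117 on the minus strand, Nr4a1 chr15:101266765-101266822 on the plus strand, Egr2 chr10:67537782-67537821 on the plus strand and Dusp5 chr19:53529048-53529097 on the plus strand.
Btg2: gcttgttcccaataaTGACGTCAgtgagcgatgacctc
Dusp1: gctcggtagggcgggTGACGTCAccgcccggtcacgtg
Fos: agttccgcccagTGACGtaggaagtccat
Fosb: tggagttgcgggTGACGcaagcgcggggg
Nr4a1: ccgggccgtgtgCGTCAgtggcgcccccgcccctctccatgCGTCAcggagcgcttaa
Egr2: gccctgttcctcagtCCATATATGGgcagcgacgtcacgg
Dusp5: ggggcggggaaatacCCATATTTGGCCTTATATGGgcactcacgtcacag

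Of the 34 genes that rose, 26 had a window in the RefSeq table. Arc, Egr1 and Sik1 were among those without one. The core CGTCA, searched on both strands, was in 17 of them (65.4%), against 19.8% of 27025 genes. Counted over single windows, since a gene can have several start sites, it was in 52.6% of 38 windows of these genes and in 17.8% of all 32851. The full element, which contains the core on both strands, was in 2 of the 26 (7.69%) against 1.77% of all genes, and the CArG box in 2 (7.69%) against 1.62%. Of the 6 genes that fell, 3 had a window, and none held any of these letters. Nr4a1 held the core 233, 213, 69 and 40 bases before the start, and Fos held it 129 and 66 bases before it. These shares describe letters and were not tested.

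Transcription factors made up the largest group of early genes that rose. Of 27 measured members of a list of activity-induced transcription factors, 9 rose and 0 fell, with 23 positive and a median log2 difference of 0.12, beside a median of 0.0017 over all probe sets. Egr2, a zinc finger factor, had the largest rise of any named gene. It was at 5.73 to 6.56 in RT30 mice (median 6.41) and 5.02 to 5.61 in FC24 mice (median 5.44), a 1.95-fold difference (log2 0.96 ± 0.10 SE, adjusted p = 6.79e-05). The lowest RT30 mouse, replicate 7, was still above every FC24 mouse. Fos, which pairs with Jun proteins to form AP-1, was at 5.23 to 5.77 in RT30 mice (median 5.35) and 4.31 to 4.82 in FC24 mice (median 4.58), 1.78-fold higher (log2 0.83 ± 0.08 SE, adjusted p = 1.53e-05). Nr4a1, an orphan nuclear receptor, was at 9.21 to 9.50 in RT30 mice (median 9.41) and 8.50 to 8.75 in FC24 mice (median 8.67). It rose 1.67-fold (log2 0.74 ± 0.04 SE, adjusted p = 4.12e-09), the smallest adjusted p of the 40 genes. None of these 3 genes overlapped between groups.

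Npas4, a factor induced by neuronal activity, was at 6.94 to 7.43 in RT30 mice (median 7.19) and 6.43 to 6.84 in FC24 mice (median 6.57), 1.52-fold higher with no overlap (adjusted p = 5.71e-05). Btg2, an antiproliferative gene and the 1 of 4 measured BTG and TOB genes that rose, was 1.38-fold higher, at 7.27 to 7.59 in RT30 mice and 6.75 to 7.16 in FC24 mice (adjusted p = 6.79e-05). Egr1 differed by a smaller step but as cleanly, with 8.92 to 9.08 in RT30 mice and 8.67 to 8.87 in FC24 mice (log2 0.25 ± 0.03 SE, adjusted p = 6.56e-04). The AP-1 members Junb and Fosb and the zinc finger factor Egr4 also rose, with overlap. Junb was at 6.75 to 7.37 in RT30 mice and 6.55 to 6.95 in FC24 mice, and 8 of 9 RT30 mice were above every FC24 mouse (log2 0.40 ± 0.07 SE, adjusted p = 0.0185). For Fosb that held for 7 of 9 mice (log2 0.32 ± 0.06 SE, adjusted p = 0.0174) and for Egr4 for 8 of 9 (log2 0.27 ± 0.05 SE, adjusted p = 0.0442). Their relatives did not all pass. Egr3 had a log2 difference of 0.04 (adjusted p = 0.942), Jun 0.03 (adjusted p = 0.958), Nr4a2 0.05 (adjusted p = 0.931) and Nr4a3 0.08 (adjusted p = 0.643). Klf2 was nearest to the threshold among those not past it, at 0.22 (adjusted p = 0.231).

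**Figure D2:**
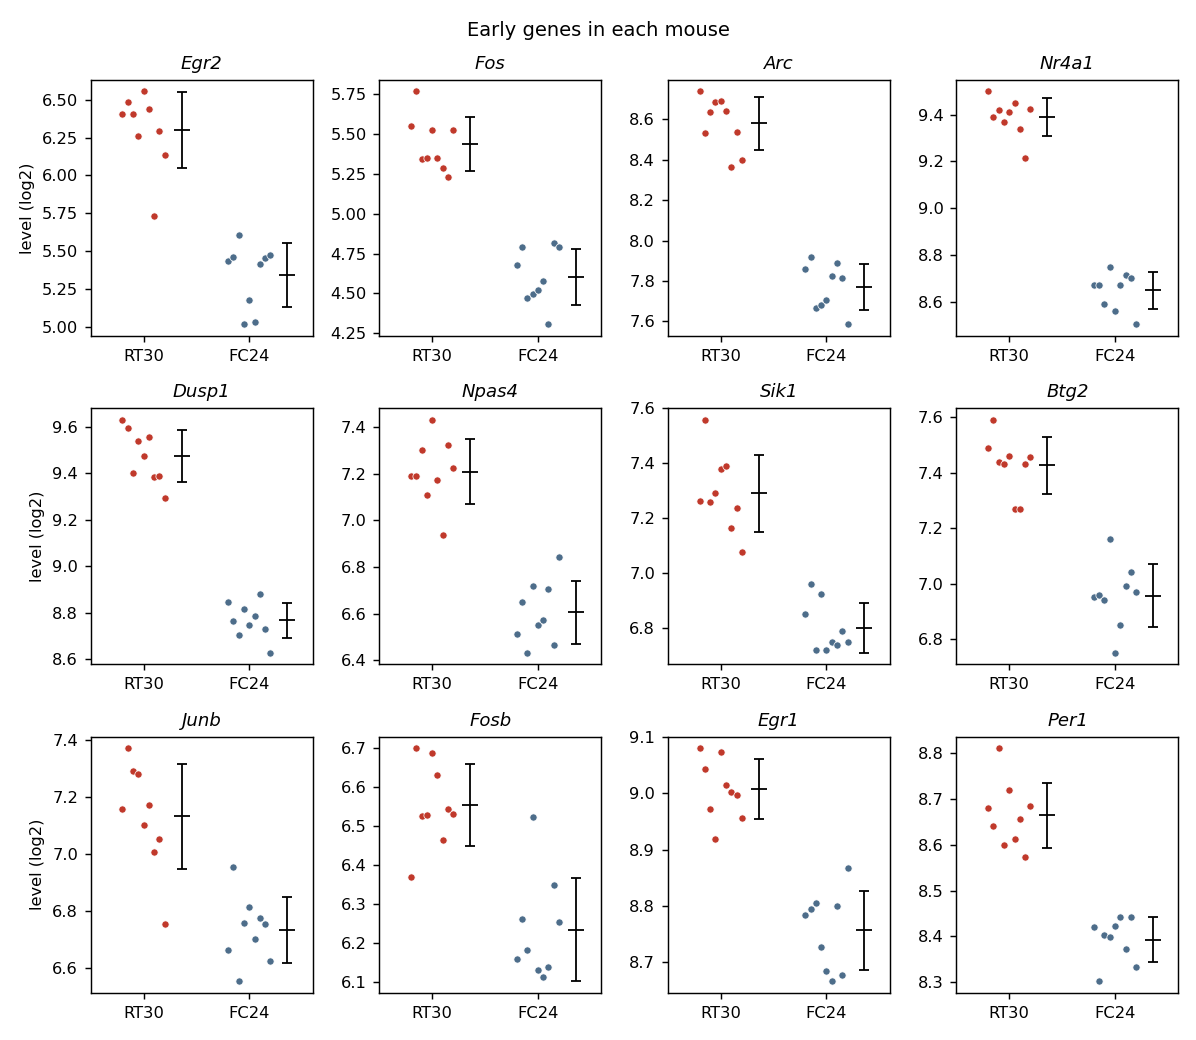
Level of 12 early genes (log2, vertical axis) in each of the 9 RT30 mice (red, left) and 9 FC24 mice (blue, right), with the mean and SD in black. The groups are apart in all but Junb and Fosb, and Egr2 shows a single low RT30 mouse at 5.73.

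Early genes that act at synapses, in the matrix or in signalling were fewer. Of 26 measured effectors, 4 rose and 0 fell, with 22 positive and a median of 0.09. Arc, which regulates AMPA receptor traffic at synapses, was at 8.36 to 8.74 in RT30 mice (median 8.64) and 7.59 to 7.92 in FC24 mice (median 7.82). It was 1.75-fold higher (log2 0.81 ± 0.06 SE, adjusted p = 1.98e-07) with no overlap. Ccn1, a secreted matricellular protein, was 1.46-fold higher, with 5.70 to 6.39 in RT30 mice and 5.22 to 5.83 in FC24 mice (adjusted p = 0.0120), and 7 of 9 RT30 mice above all FC24 mice. Per1, a clock gene that is also induced by CREB, was at 8.57 to 8.81 in RT30 mice and 8.30 to 8.44 in FC24 mice (log2 0.27 ± 0.03 SE, adjusted p = 2.36e-04). Sgk1, a kinase induced by glucocorticoids, had a log2 difference of 0.24 ± 0.03 SE (adjusted p = 0.00278) and 8 of 9 RT30 mice above all FC24 mice.

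Feedback regulators of MAP kinase signalling formed a second group, with 2 higher and 0 lower of 18 measured. Dusp1, which dephosphorylates MAP kinases in the nucleus, was at 9.30 to 9.63 in RT30 mice (median 9.47) and 8.63 to 8.88 in FC24 mice (median 8.77), 1.63-fold higher (log2 0.71 ± 0.05 SE, adjusted p = 6.90e-08). Dusp5, a nuclear ERK phosphatase, was at 7.26 to 7.57 in RT30 mice (median 7.49) and 7.03 to 7.19 in FC24 mice (median 7.09), with an adjusted p of 5.71e-05. Both were free of overlap. Dusp6, the cytoplasmic ERK phosphatase, lay just outside the threshold, with a log2 difference of 0.20 (adjusted p = 0.103). Among salt-inducible kinases and the CREB family, 1 of 12 rose. This was Sik1, a kinase that restrains the CRTC coactivators of CREB, at 7.08 to 7.56 in RT30 mice (median 7.26) and 6.72 to 6.96 in FC24 mice (median 6.75), 1.41-fold higher with no overlap (adjusted p = 9.82e-05). CREB itself (Creb1, -0.02) and its other coactivators Crebbp (-0.01) and Ep300 (0.06) did not pass.

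Single mice were followed across these genes. In 15 genes that rose from the transcription factor, effector and MAP kinase lists, RT30 replicate 7 was among the 3 lowest RT30 mice in 11 and RT30 replicate 5 among the 3 highest in 10. The median rise above the FC24 mean over the 15 genes was 0.32 in the lowest RT30 mouse, replicate 8, and 0.63 in the highest, replicate 2. In FC24 mice the same median lay between -0.06 and 0.05. The 15 genes were chosen for rising above FC24 mice, which lie around their own mean, so this gap between groups was set by that choice.

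Genes that follow the early wave, and gene groups of stress, time of day and RNA processing, mostly did not pass. Of 18 later activity-regulated genes, which need newly made factors, 0 passed in either direction in limma, with 1 at an unadjusted p under 0.05 and a median of -0.01. Bdnf, a neurotrophin, had a log2 difference of 0.04 (adjusted p = 0.942). Of 25 glucocorticoid-responsive genes 2 rose, Per1 and Sgk1, with 21 positive, 9 at an unadjusted p under 0.05, all higher, beside 6.2% of all probe sets at that p in either direction, and a median of 0.05. Hif3a (0.20, adjusted p = 0.118), Ddit4 (0.24, adjusted p = 0.217) and Tsc22d3 (0.19, adjusted p = 0.547) did not pass, and Fkbp5 was at 0.01. Of 18 clock genes Per1 alone passed, and Per2 (0.08) and Per3 (0.02) did not. Of 13 NF-kB subunits and inhibitors 0 passed and 1 had an unadjusted p under 0.05: Nfkbia, an inhibitor of NF-kB, at 0.25 (adjusted p = 0.255). Of 49 splicing factors and kinases 0 passed and 3 had an unadjusted p under 0.05, with Rbfox1 at a log2 difference of 0.00 and Prpf38b at -0.06. Of 10 histone 2A genes 0 passed and 1 had an unadjusted p under 0.05, H2ac21 at -0.12. In 9 further lists, of DNA methylation and Gadd45 genes, histone deacetylases, endoplasmic reticulum chaperones, heat shock genes, glutamate receptors and CaM kinases, neuropeptides, cholesterol synthesis, red blood cells, and cortex and thalamus markers, 0 of 123 members passed and 7 had an unadjusted p under 0.05. Their directions differed. Positive differences were held by 6 of 25 glutamate receptors and CaM kinases (median -0.02), but by 9 of 12 heat shock and 12 of 17 cholesterol synthesis genes. For cortex and thalamus markers 3 of 10 were positive, with a median of -0.06. Their mean level was 7.78 to 7.88 in RT30 mice and 7.87 to 7.99 in FC24 mice, and what this reflects was not tested.

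**Figure D3:**
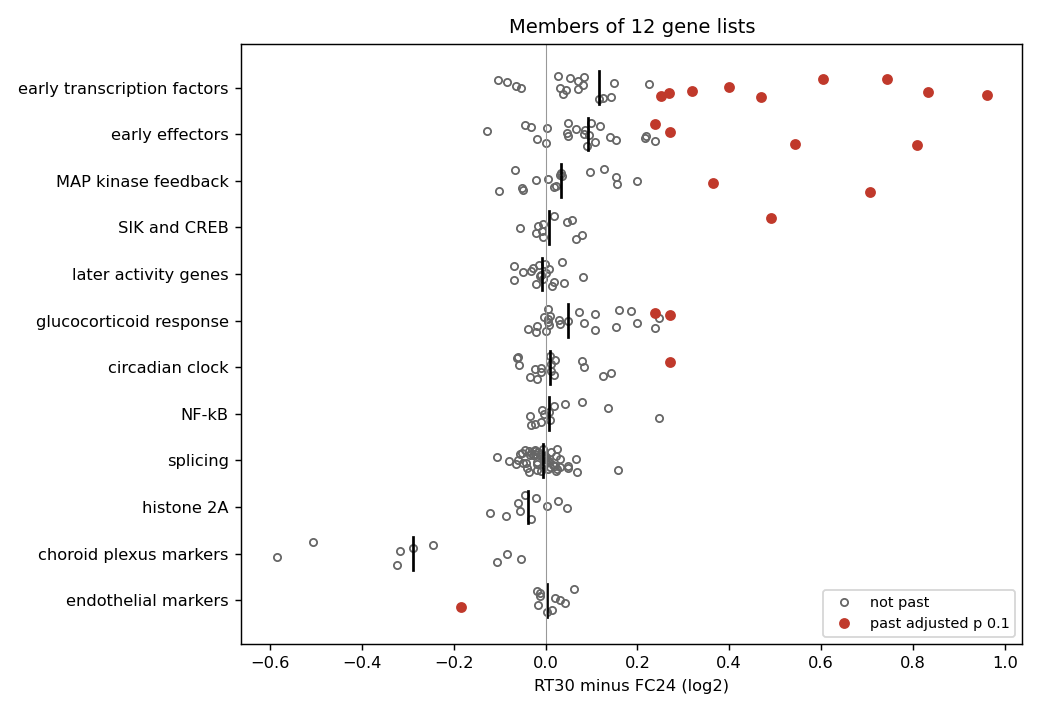
Difference between RT30 and FC24 mice (RT30 minus FC24, log2, horizontal axis) for each measured member of 12 gene lists, filled red where past adjusted p 0.1, with the list's median as a vertical bar. The early transcription factors reach 0.96, the later activity genes stay between -0.07 and 0.08, and all 9 choroid plexus markers lie below 0 without passing.

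Among noncoding RNAs, the small nucleolar RNA gene Snord14e, which lies in an intron of the chaperone gene Hspa8 and belongs to the class that guides RNA modification, had the second largest rise. It was at 8.11 to 8.84 in RT30 mice (median 8.48) and 7.35 to 7.995 in FC24 mice (median 7.52), 1.83-fold higher with no overlap (log2 0.87 ± 0.11 SE, adjusted p = 4.44e-04). The 3 probe sets of its host Hspa8 had log2 differences of 0.00, 0.00 and 0.03. It was the only one of 30 Snord genes with a probe set of their own to pass, with 20 of 30 positive and a median of 0.05.

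At the main setting 1 microRNA gene passed as higher and 2 as lower, and the calls of those 2 were lost under other settings. The mature sequences are shown because Mir212 and Mir132, which lie together on chromosome 11, share their seed (bases 2 to 8, in capitals), and because Mir219a-2 and Mir128-2 each have a second gene that makes the same mature arm. They are given in the RefSeq table for GRCm38.p6.
miR-212-3p: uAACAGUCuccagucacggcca
miR-132-3p: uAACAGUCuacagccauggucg
miR-219a-5p: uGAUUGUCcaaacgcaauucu
miR-128-3p: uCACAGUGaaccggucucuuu

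Mir212 was at 6.65 to 6.95 in RT30 mice (median 6.70) and 6.14 to 6.42 in FC24 mice (median 6.24), 1.36-fold higher with no overlap (adjusted p = 5.71e-05). Mir132 was at 4.45 to 4.79 in RT30 mice (median 4.51) and 4.09 to 4.46 in FC24 mice (median 4.37), with overlap and no pass (log2 0.20 ± 0.05 SE, adjusted p = 0.287). These levels were below the array medians of 5.82 to 5.87, so the Mir132 probe set was dim. The study describes miR-212 and miR-132 as products of the same precursor. Mir219a-2 was at 5.38 to 5.85 in RT30 mice (median 5.52) and 5.52 to 6.17 in FC24 mice (median 6.07). It fell by 0.42 on the log2 scale (SE 0.09, adjusted p = 0.0813), and the groups overlapped. Its second gene Mir219a-1, which makes the same 5p arm, had a difference of 0.02 (adjusted p = 0.989). Mir128-2, in an intron of Arpp21, was at 5.75 to 6.11 in RT30 mice (median 5.94) and 6.08 to 6.30 in FC24 mice (median 6.18), and fell by 0.23 (adjusted p = 0.0839). Arpp21 had a difference of -0.09 (adjusted p = 0.676) and Mir128-1 one of -0.04 (adjusted p = 0.981). Mir219a-2 passed in 10 of 13 other settings and with 5 of 18 single mice left out, and Mir128-2 in 6 of 13 and 5 of 18, while Mir212 passed in all of them. These array probe sets read the gene region and do not separate the precursor from the mature RNA. Of 306 microRNA genes 1 rose and 2 fell, and of 10 listed microRNA genes of learning 1 rose, Mir212, and 1 fell, Mir219a-2. Of those 10, 5 had an unadjusted p under 0.05 in limma, 4 higher and 1 lower, beside 6.2% of all probe sets.

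**Figure D4:**
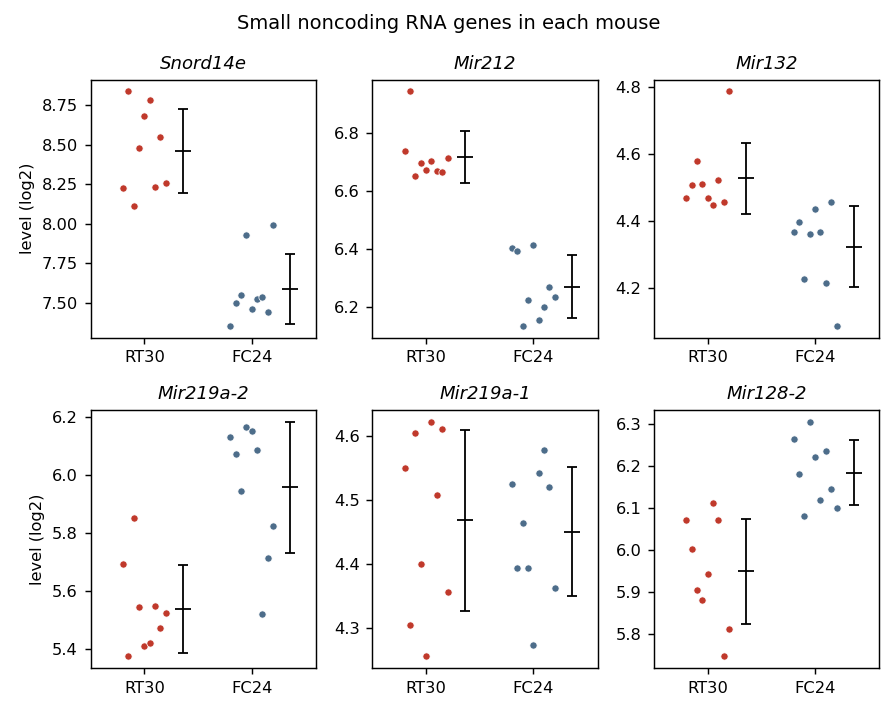
Level of 6 small noncoding RNA genes (log2, vertical axis) in each of the 9 RT30 mice (red, left) and 9 FC24 mice (blue, right), with the mean and SD in black. Snord14e and Mir212 are apart between groups, Mir132 and Mir219a-1 did not pass, and Mir219a-2 and Mir128-2 are lower in RT30 mice with some overlap.

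Several genes outside the lists rose too. Tm6sf2, a transmembrane protein of lipid export in liver, was at 6.92 to 7.32 in RT30 mice and 6.42 to 6.73 in FC24 mice (log2 0.46 ± 0.05 SE, adjusted p = 2.57e-04). Tnfrsf25, a death receptor of the TNF family, was 1.33-fold higher (adjusted p = 0.0119). Gnrh1, the gonadotropin-releasing hormone gene, was at 5.34 to 5.49 in RT30 mice and 4.96 to 5.25 in FC24 mice (log2 0.25 ± 0.04 SE, adjusted p = 0.00226). The zinc finger gene Zfp189 was at 8.34 to 8.55 in RT30 mice and 7.81 to 8.27 in FC24 mice (adjusted p = 0.0650), and the long noncoding RNA Lncpint at 9.89 to 9.97 in RT30 mice and 9.73 to 9.85 in FC24 mice (adjusted p = 0.00226). None of Tm6sf2, Gnrh1, Zfp189 and Lncpint overlapped between groups. The other genes, among them Nkd2, an inhibitor of Wnt signalling (0.20), and the RNA helicase gene Dhx33 (0.15), rose by 0.15 to 0.25. For Acer2 and Tent5a, a second probe set did not pass, at -0.08 for Acer2 and 0.03 for Tent5a.

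Few named genes fell. The noncoding gene 2900052L18Rik was the only one without overlap, at 7.68 to 7.96 in RT30 mice and 7.96 to 8.15 in FC24 mice (log2 -0.25 ± 0.04 SE, adjusted p = 0.00226). The zinc finger gene Zfp867 was at 4.83 to 5.25 in RT30 mice and 5.23 to 5.67 in FC24 mice (log2 -0.33 ± 0.06 SE, adjusted p = 0.0632). Haus1, a part of the augmin complex of the spindle, fell by 0.20 (adjusted p = 0.0831). Cldn5, the tight junction protein of brain endothelium, was at 8.77 to 8.93 in RT30 mice and 8.85 to 9.15 in FC24 mice and fell by 0.18 (adjusted p = 0.0839). The other 10 endothelial markers lay between -0.02 and 0.06, and the mean of all 11 was 7.65 to 7.82 in RT30 mice and 7.57 to 7.89 in FC24 mice. Sox18, an endothelial transcription factor, had -0.24 and did not pass (adjusted p = 0.376), while Apold1, an endothelial early gene, rose 1.39-fold (adjusted p = 8.38e-04). With Ccn1, that made 2 higher of 10 endothelial SOX factors and early genes. At an unadjusted p under 0.05 in limma there were 7 of the 10, 4 higher and 3 lower, beside 6.2% of all probe sets. The list was chosen with earlier results of these data known. Of the 6 genes that fell, 2900052L18Rik alone passed with each single mouse left out.

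Choroid plexus markers, which read tissue next to the hippocampus, differed widely between mice of a group. Of 9 markers 0 passed, 0 had an unadjusted p under 0.05, and 9 were lower in RT30 mice, with a median of -0.29. Their mean level was 5.74 to 6.91 in RT30 mice and 5.85 to 7.98 in FC24 mice, and Ttr, the transthyretin gene, averaged 8.62 ± 1.22 in RT30 mice and 9.12 ± 1.68 in FC24 mice (SD, n = 9 each). All 10 meningeal fibroblast markers were lower too, with a median of -0.05 and none past the threshold. Whether this tissue had a part in the genes that fell was not tested.

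The first training was set beside these values, since FC30 and CC30 mice share no array with RT30 and FC24 mice. FC30 against CC30 had 91 probe sets past adjusted p 0.1 (0.256%), 66 of them higher (0.186%). There were 30 probe sets past the threshold in both comparisons, all in the same direction, which is 55.6% of those of RT30 against FC24 and 33.0% of those of FC30 against CC30. They held 24 genes. The sign was the same in both comparisons for 38 of the 40 genes, and the share of all genes with the same sign was not computed. For Arc the difference was 0.81 in RT30 against FC24 and 0.85 in FC30 against CC30, for Fos 0.83 and 0.82, for Dusp1 0.71 and 0.75, and for Nr4a1 0.74 and 0.76. Mir212 had 0.45 and 0.47, Snord14e 0.87 and 0.82, and Mir219a-2 -0.42 and -0.39.

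The difference between these 2 responses was tested itself, as the interaction in limma over 36 arrays. At an adjusted p under 0.1, 0 of 35556 probe sets passed (0%), and 1205 had an unadjusted p under 0.05. This does not show that the responses were equal. For Egr2 the interaction was -0.31 with a 95% interval of -0.66 to 0.04, and for Egr1 -0.14 with -0.29 to 0.00. For Arc the interval was -0.27 to 0.17, and for Nr4a1 -0.19 to 0.15. Of the 54 probe sets, 8 had an unadjusted p under 0.05, and these were chosen on a difference that the interaction contains. Among them, Tmem51 rose by 0.24 in RT30 against FC24 and had -0.04 in FC30 against CC30 (interaction 0.27, 95% interval 0.12 to 0.43), and Nkd2 had 0.20 and 0.03 (interaction 0.17, interval 0.06 to 0.29). For Haus1 the values were -0.20 and 0.00, and for Zfp867 -0.33 and -0.08. None of these interactions passed adjustment, with an adjusted p of 1.

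**Figure D5:**
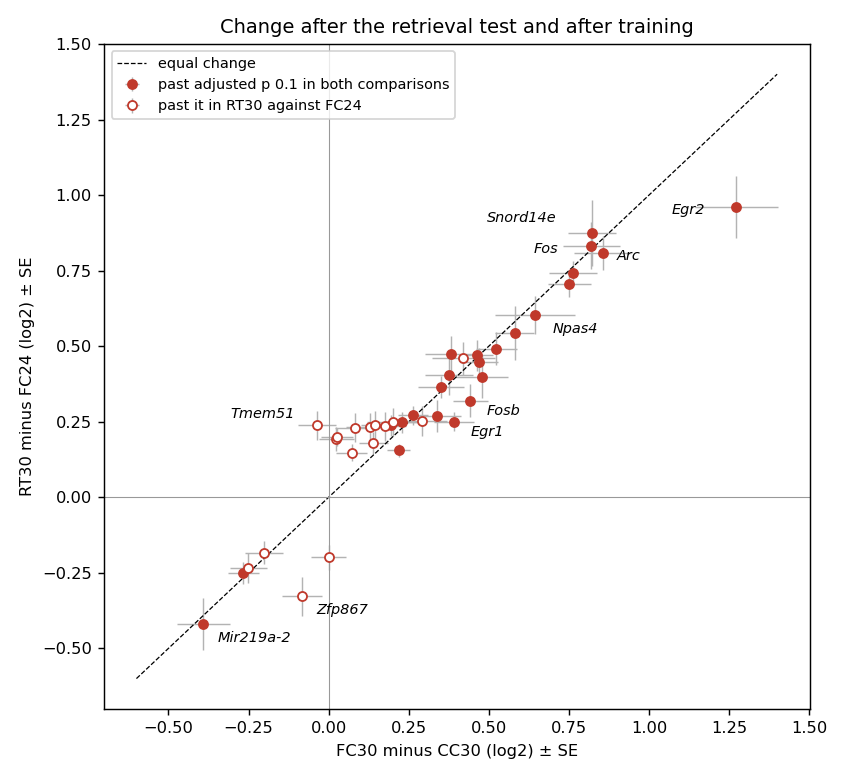
Difference between RT30 and FC24 mice (vertical axis, log2) against that between FC30 and CC30 mice (horizontal axis, log2) for the 40 genes, with bars for the SE, filled where past adjusted p 0.1 in both, and a dashed line of equal change. Most points lie near the line, Egr2 is to its right at 1.27 for FC30 against CC30, and Tmem51 is to its left.

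The level in FC24 mice was also set beside that of untrained mice. FC24 against CC30 had 0 probe sets past the threshold (0%) in limma. It had 1534 of 35556 at an unadjusted p under 0.05, among them 11 of the 54 that differed between RT30 and FC24. It shares the FC24 mice with the main comparison, so values are given side by side and no more. FC24 minus CC30 was 0.01 for Arc, -0.06 for Fos, -0.04 for Nr4a1, 0.05 for Dusp1, 0.08 for Egr2 and 0.03 for Mir212. It was 0.26 for Snord14e, -0.15 for Tmem51 and -0.10 for Nkd2.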

How the data were processed

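RNA from both hippocampi of each mouse was hybridised by the authors to Affymetrix Mouse Gene 1.1 ST arrays. The signal of 2 scans was averaged, and the authors deposited log2 values normalised with RMA. The table holds no columns of other series and no comparison of the authors. Probe sets were named from the platform annotation: 21218 carried 1 symbol, 1881 several and 12457 none, and 21185 symbols matched RefSeq by gene number. The study's methods subtract a first principal component. Here one was computed over the 72 arrays after centring each row, held 17.4% of the variance and was subtracted. Its share differs from the one the methods give, so it is not shown to be the component they removed. RT30 and FC24 were compared with limma 3.58.1 in R 4.3.3 (moderated test, two-sided) over all probe sets, with Benjamini-Hochberg adjustment. Figures used Python 3.11.15 and matplotlib 3.10.9. The fit was tested on simulated data. Genes named were the 20 largest rises and 15 largest falls past adjusted p 0.1 (6 fell), genes the study names, and members of 32 lists. Members and lists were chosen with earlier results of these data known. Within a gene list, each gene was represented by its probe set with the highest mean. Alternatives covered the component, the test, weights, filters, the replicate number as a block and leaving out each mouse. The number of arrays limits precision.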

Additional observations from a re-analysis of the deposited data

Results flagged for a closer look

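Of 116 groups of 9 values checked, 12 held a mouse whose gap to its nearest neighbour was large for the range of its group, and chance flags about 1 in 20 groups. In RT30 mice, Mir212 was 6.95 in replicate 2 (nearest 6.74), Egr2 5.73 in replicate 7 (nearest 6.14), Tm6sf2 7.32 in replicate 6 (nearest 7.03), Gimap6 4.95 in replicate 9 (nearest 5.09) and Mir132 4.79 in replicate 9 (nearest 4.58). In FC24 mice, Lncpint was 9.85 in replicate 4 (nearest 9.79), Zfp867 5.67 in replicate 2 (nearest 5.44), Zfp189 7.81 in replicate 1 (nearest 8.11), Adm 4.34 in replicate 3 (nearest 4.52), Per2 7.28 in replicate 4 (nearest 7.41) and Arpp21 10.21 in replicate 7 (nearest 10.07). The score of the subtracted first component was 2.8 in FC24 replicate 4 (nearest -3.3), and averaged -0.2 ± 6.3 in RT30 mice and -4.8 ± 3.3 in FC24 mice (SD, n = 9 each).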

How the results depend on the processing

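None of the 40 genes turned its direction under the other settings run for it (13, or 12 for Tmem51, which is among the dimmest probe sets that 1 setting leaves out) or with any of 18 mice left out, and 23 passed in all of them. The count of 54 probe sets (43 higher, 11 lower, 24 under 0.01) became 82 (67 higher) with the component found over the 18 arrays, 193 (121 higher, 72 lower, 51 under 0.01) with local false discovery rates, and 19 lower with all 8 groups in one fit. The local rates were rebuilt here after the method the study names, and in simulated data with no change they called more probe sets than limma did, so that count is liberal. The cause of the other shifts was not tested. Leaving out single mice gave 42 to 58 probe sets, 33 to 50 higher, 6 to 16 lower and 24 to 28 under 0.01. The lower count was 6 without RT30 replicate 5, and 7 without RT30 replicate 4, RT30 replicate 9, FC24 replicate 2 or FC24 replicate 5. With a mouse left out, 27 genes always passed, while Mir219a-2, Mir128-2 and Haus1 passed in 5 of 18 cases, Cldn5, Adm and Gimap6 in 4, and Egr4 in 14 (not without RT30 replicate 5 or FC24 replicates 1, 2 or 7). Of the study's genes that did not pass, Nfkbia passed in 4 settings, Ddit4 in 2, and Mir132 and Sox18 in 1 each. The study's methods describe 9 independent conditioning experiments, all of them represented in each group. No label says whether a replicate number marks such an experiment. Whether replicate numbers pair the mice was therefore not settled, and the main fit held no block. Same-numbered deviations correlated at -0.07 to 0.22, 3 of 9 pairs over 0.1, and 3 mice matched their own number best. Only replicate 8 lay below 0. On the second principal component, replicate 9 scored -14.4 in FC24 and -13.6 in RT30, and replicate 5 -8.5 and -9.1. Scores were further apart for replicate 4 (10.1 and 1.4) and replicate 8 (0.4 and -6.9). With the replicate number as a block, 50 probe sets passed (41 higher, 9 lower), 12 of them under 0.01, and 14 of the 40 genes did not pass, Mir219a-2 and Mir128-2 among them. The difference between the 2 responses gave 0 probe sets in all 4 alternatives.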
